A study of Mus musculus with 4 samples.

Results

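Chemokines and chemokine receptors other than *Ccl2*, *Ccl7*, *Ccl8*, *Ccl12* and *Ccr2* were followed in the RNA of mature mouse cochlea after diphtheria toxin (DT) was used to remove the outer hair cells (OHCs), the electromotile sensory cells of the organ of Corti. Genes were taken when the array named a probe Ccl, Cxcl, Ccr, Cxcr, Xcl or Xcr followed by a number, and the 5 genes of the *Ccr2* axis were left out. Described here are 45 such genes with 60 probes, among 30028 gene names on the array. Of them, 33 had a signal well above background on 1 array or more, as had 21942 gene names of the whole array, and 12 had none. A gene is represented by its brightest probe among those that passed.

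The 4 groups were wild-type and OHC-TRECK mice, each untreated or given DT, all of strain B6J and 5 weeks of age, with males and females pooled. DT was given at 50 μg/kg of bodyweight, 7 days before the cochleae were taken. The OHC-TRECK line carries a modified human HB-EGF, which serves as the DT receptor, under the promoter of *Slc26a5* (prestin), the motor protein gene of OHCs, so that both OHC-TRECK groups carry the transgene and both DT-treated groups received the toxin. The design text gives n = 8, with 4 females and 4 males, and the RNA of a group was pooled onto 1 array. Differences between groups thus have no replicates behind them and carry no p-value, and precision is limited by there being 1 array for each group. Whole cochleae were extracted, and in such bulk RNA fewer cells of a type and less RNA per cell cannot be told apart.

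Chemokines are small secreted proteins that direct the migration of leukocytes along gradients. They act through seven-transmembrane receptors coupled to inhibitory G proteins, and many ligands share receptors. Some, such as CXCL12, are made steadily by stroma and hold cells in place, whereas others, such as CXCL10 and CCL3, are induced during inflammation. In the inner ear, resident macrophages lie in the lateral wall, the spiral ganglion and the basilar membrane, and leukocytes reach the cochlea after hair cell damage.

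Promoter sequences are shown first, for 2 genes that were higher after OHC ablation, *Cxcl10* and *Ccl3*, and for 3 induced ligands of CXCR2, *Cxcl1*, *Cxcl2* and *Cxcl3*, that were not well above background on any array. The letters are from RefSeq on build GRCm38.p6, run 5′ to 3′ along the strand of the gene and end at the base before the annotated start. Capitals mark matches on either strand to GGAANTTCC, letters found in κB-type sites, or to GAAANNGAA, letters found in interferon regulatory factor type sites.
Cxcl10, 250 bases, chr5:92348890-92349139, minus strand: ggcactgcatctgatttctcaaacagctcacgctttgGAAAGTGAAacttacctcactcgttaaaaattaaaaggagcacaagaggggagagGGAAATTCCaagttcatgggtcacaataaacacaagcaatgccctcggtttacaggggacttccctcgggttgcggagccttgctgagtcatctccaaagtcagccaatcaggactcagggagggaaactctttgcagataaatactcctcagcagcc
Ccl3, 250 bases, chr11:83649379-83649628, minus strand: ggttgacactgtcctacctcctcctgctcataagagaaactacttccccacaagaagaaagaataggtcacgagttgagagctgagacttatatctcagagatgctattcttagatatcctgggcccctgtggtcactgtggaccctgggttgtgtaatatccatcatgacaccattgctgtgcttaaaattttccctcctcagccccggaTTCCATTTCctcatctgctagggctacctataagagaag
Cxcl1, nearest 120 bases, chr5:90891125-90891244, plus strand: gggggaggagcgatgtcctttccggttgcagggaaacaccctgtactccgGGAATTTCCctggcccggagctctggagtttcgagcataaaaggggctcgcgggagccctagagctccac
Cxcl2, nearest 120 bases, chr5:90903779-90903898, plus strand: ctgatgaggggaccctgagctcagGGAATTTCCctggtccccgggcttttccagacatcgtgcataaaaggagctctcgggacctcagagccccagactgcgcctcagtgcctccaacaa
Cxcl3, nearest 120 bases, chr5:90785981-90786100, plus strand: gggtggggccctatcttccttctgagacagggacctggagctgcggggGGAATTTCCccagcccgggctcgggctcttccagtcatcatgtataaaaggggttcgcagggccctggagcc

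The promoter of *Cxcl10* held both motifs, GAAANNGAA 213 bases and GGAANTTCC 158 bases before the start. *Cxcl1*, *Cxcl2* and *Cxcl3* held the κB-type letters 70, 96 and 72 bases before the start. In the 250 bases before *Ccl3* there was 1 match, to GAAANNGAA on the opposite strand, 39 bases before the start. GGAANTTCC reads the same on both strands, and neither motif overlapped the other in the sequences shown. Of all 32851 RefSeq promoters, 0.813% held GGAANTTCC in the 250 bases and 7.13% held GAAANNGAA. Among the 33 genes of the family with a promoter in the table, the first motif was found for 6 (*Ccl1*, *Ccr3*, *Cxcl1*, *Cxcl2*, *Cxcl3* and *Cxcl10*) and the second for 7 (*Ccl1*, *Ccl3*, *Ccl19*, *Cxcl9*, *Cxcl10*, *Cxcl14* and *Cxcr1*). A match describes letters in a window and is not a measured binding site. Of the 6 genes with the κB-type letters, *Cxcl10* alone changed by 2-fold or more in any comparison below, and 4 were not well above background on any array.

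By the flag of the scanner software, between 62.2% and 70.6% of the probes of an array passed as well above background. Saturation was flagged for no spot. Levels are given as log2 of the signal over the 75th percentile of the array, so that 0 is the signal of a fairly bright probe and each unit is a 2-fold step. Spots of the same probe repeated on an array had a median standard deviation of 0.147 to 0.162 on this scale for dim probes (levels under -3) and 0.054 to 0.067 for brighter ones, which is scatter within an array only. A gene was called changed at 2-fold or more with the brighter side well above background. A side that was not well above background was raised to the lowest signal of probes that were, on its array. Raising makes the fold a lower limit, given with the words at least. A side that already read above that lowest signal without passing kept its own reading. Its fold is a plain ratio to a signal that did not pass. That lowest signal was -5.93 in untreated and -5.48 in DT-treated wild-type mice, and -6.39 in untreated and -5.44 in DT-treated OHC-TRECK mice. A dim gene could thus pass in untreated OHC-TRECK mice alone without being brightest there. The outer hair cell markers set the DT-treated OHC-TRECK array apart. The summed signal of 7 markers, most of it from *Ocm*, in units of the 75th percentile, was 24.4 in untreated and 23.0 in DT-treated wild-type mice, 24.7 in untreated OHC-TRECK mice and 5.86 in DT-treated OHC-TRECK mice. Against each other array 4 of the 7 (*Ocm*, *Strc*, *Chrna9* and *Chrna10*) were lower by 2-fold or more, whereas *Lmo7*, *Ikzf2* and *Slc26a5*, the last with a limit only, were not. The markers do not check the labels of the other 3 arrays, which were alike. The protocol label of every sample mentions DT, and groups follow the titles and the treatment label. Of the 14 cochlear markers, all were well above background on 1 array or more and 12 on all 4, the exceptions being *Tecta* and *Slc26a5*.

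In the mature cochlea 73.3% of the chemokine genes were measurable, as were 73.1% of all gene names. Of the 45 genes, 22 were well above background on all 4 arrays, 2 on 3, 3 on 2 and 6 on 1. Of the 30028 gene names, 18248 were well above background on all 4, a larger share than in the family. By role, the measurable genes were 5 of 5 inflammatory CC ligands, 6 of 6 eosinophil and T helper cell attractants, 5 of 6 lymphoid and epithelial homing ligands, 3 of 3 ligands of CXCR3, 3 of 4 stromal or membrane-bound CXC ligands, 5 of 8 CC receptors and 4 of 6 CXC receptors. Ligands of CXCR2, which draw neutrophils, had 1 of 5 measurable, *Cxcl5*, and the XC ligand and receptor 1 of 2. On all 4 arrays, 1 of 6 eosinophil and T helper cell attractants was well above background, as was 1 of 5 ligands of CXCR2. The genes not well above background on any array were *Ccl20*, *Cxcl1*, *Cxcl2*, *Cxcl3*, *Cxcl15*, *Cxcl17*, *Xcl1*, *Ccr1*, *Ccr3*, *Ccr4*, *Cxcr1* and *Cxcr5*, for which these arrays give only a bound.

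**Figure D1:**
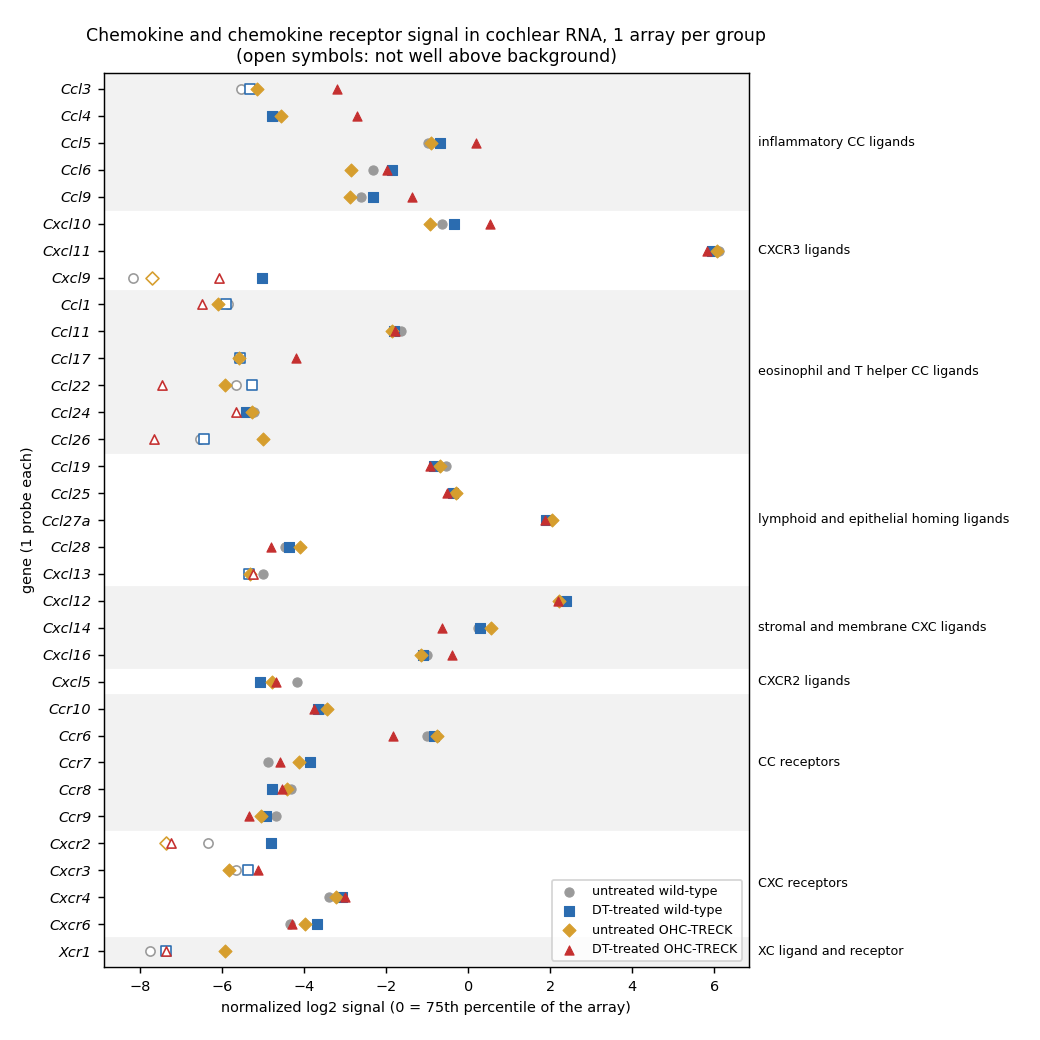
Normalized log2 signal (x axis, 0 = 75th percentile of the array) of the 33 measurable chemokine and chemokine receptor genes (y axis, by role), 1 symbol per array, with open symbols where the probe was not well above background. The DT-treated OHC-TRECK symbol stands to the right of the others for *Ccl3*, *Ccl4*, *Ccl5*, *Ccl9*, *Ccl17*, *Cxcl10* and *Cxcl16* and to the left for *Cxcl14* and *Ccr6*, whereas *Cxcl12*, *Ccl11* and *Ccl27a* overlap closely.

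After OHC ablation, 4 of the 5 inflammatory CC ligands were higher by 2-fold or more than in untreated OHC-TRECK mice, and *Cxcl10* and *Ccl17* with them, whereas *Cxcl14* and *Ccr6* were lower. In DT-treated against untreated OHC-TRECK mice, 6 of 31 genes tested were higher by 2-fold or more, against 2.71% of all genes tested, and 2 were lower, against 1.42%, or 8 in either direction against 4.13%. In DT-treated OHC-TRECK against DT-treated wild-type mice, 3 of 28 were higher (1.52% of all genes) and 0 were lower (1.95%; 3.47% in either direction). Against untreated wild-type mice, 6 of 27 were higher (2.11%) and 0 lower (2.05%; 4.16% in either direction). These comparisons share the array of DT-treated OHC-TRECK mice. Against each of the other 3 arrays, 3 of 33 genes were higher by 2-fold or more, *Ccl3*, *Ccl4* and *Ccl17*, where 1.07% of all genes were, and 0 were lower, where 0.255% were, or 1.32% in either direction. The median over the genes of the family lay between -0.13 and 0.03 on the log2 scale in the 5 comparisons of a pair of arrays, at -0.13 for DT-treated against untreated OHC-TRECK mice beside -0.01 over all genes, so the rise was that of some genes and not of the family.

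The inflammatory CC ligands recruit monocytes, macrophages, T cells and NK cells. Levels are given for untreated and then DT-treated wild-type mice, followed by untreated and then DT-treated OHC-TRECK mice, here and below, and in this order *Ccl3* (MIP-1α) had levels of -5.54, -5.33, -5.16 and -3.19 and was not well above background on the wild-type arrays. *Ccl4* (MIP-1β), well above background on all, had levels of -4.66, -4.79, -4.56 and -2.70. The 3 arrays without ablation lay close together for both genes, and the ablated array stood apart. *Ccl3* was 3.91-fold higher than in untreated OHC-TRECK mice, 4.40-fold higher than in DT-treated wild-type mice and 5.09-fold higher than in untreated wild-type mice. *Ccl4* was 3.62-, 4.24- and 3.88-fold higher in the same order. For *Ccl3*, the folds against wild-type mice are ratios to readings that did not pass, and are not lower limits.

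*Ccl5* (RANTES), a T cell and monocyte attractant, had levels of -0.97, -0.70, -0.90 and 0.19, and *Ccl9* (MIP-1γ), a myeloid chemokine that signals through CCR1, had levels of -2.61, -2.32, -2.88 and -1.37. Both were highest on the ablated array, *Ccl5* by 2.12-fold against untreated OHC-TRECK, 1.84-fold against DT-treated wild-type and 2.23-fold against untreated wild-type mice, and *Ccl9* by 2.84-, 1.93- and 2.35-fold. *Ccl6*, another myeloid CCR1 ligand, behaved differently, with levels of -2.33, -1.85, -2.87 and -1.98. It was 1.85-fold higher in DT-treated than in untreated OHC-TRECK mice, but lay 1.09-fold below the DT-treated and 1.27-fold above the untreated wild-type array, so the ablated array lay within the range of the others.

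The probes of these 5 ligands lie within 139 kb of chromosome 11, between 83339296 and 83478111 on mm9, the build of the probe positions in the array files, in the order *Ccl5*, *Ccl9*, *Ccl6*, *Ccl3* and *Ccl4*. The log2 ratios of DT-treated to untreated OHC-TRECK mice along the cluster were 1.08, 1.51, 0.89, 1.97 and 1.85. All were positive, with the 2 largest at neighbouring genes. On chromosome 9, 264 kb held the receptors *Ccr9* at -0.28 and *Cxcr6* at -0.31, with no ratio for *Xcr1*, and *Ccr1* and *Ccr3* not well above background. The CXC ligand region of chromosome 5 held *Cxcl5* at 0.12, *Cxcl10* at 1.46 and *Cxcl11* at -0.25, while its 4 CXCR2 ligands besides *Cxcl5* were not well above background.

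*Ccr1*, a main receptor of this ligand group on myeloid cells, did not pass the background flag on any array.

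*Cxcl10* (IP-10), an interferon-inducible attractant of T cells and NK cells, had levels of -0.65, -0.35, -0.92 and 0.53. It was 2.75-fold higher on the ablated array than in untreated OHC-TRECK mice, 1.85-fold higher than in DT-treated wild-type mice and 2.27-fold higher than in untreated wild-type mice. Its other probe did not pass the background flag on any array. *Cxcl9*, also interferon-inducible, was well above background in DT-treated wild-type mice alone, with levels of -8.16, -5.02, -7.72 and -6.08. That made it at least 1.88-fold higher than in untreated wild-type mice. *Cxcr3*, the receptor of both, had levels of -5.65, -5.37, -5.82 and -5.13 and was 1.62-fold higher in DT-treated than in untreated OHC-TRECK mice.

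*Cxcl11*, the last ligand of CXCR3, gave bright and level readings of 6.13, 5.94, 6.07 and 5.83, within 1.23-fold across the arrays. RefSeq lists mouse *Cxcl11* as a transcribed pseudogene, and the strain here is of the B6 background. The 2 probes of this name lie 73 bases apart on chromosome 5, and their mean levels differed by 5.43 on the log2 scale. Its dimmer neighbour was also lowest on the ablated array, with a log2 ratio of -0.37 to untreated OHC-TRECK mice beside -0.25 for the brighter probe.

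*Ccl17* (TARC), a CCR4 ligand that attracts T helper cells and is made by dendritic cells, had levels of -5.60, -5.57, -5.59 and -4.21, and was not well above background in DT-treated wild-type mice. The ablated array was higher by 2.60-fold against untreated OHC-TRECK, at least 2.41-fold against DT-treated wild-type and 2.63-fold against untreated wild-type mice. With normexp background correction, which draws dim signals together, the log2 ratios of 1.38, 1.27 and 1.39 fell to 0.89, 0.84 and 0.80, so the direction was kept and the 2-fold call was not. *Ccl22*, its neighbour on chromosome 8 and the other CCR4 ligand, was well above background in untreated OHC-TRECK mice alone and gave no fold. Its levels were -5.65, -5.27, -5.93 and -7.46, so both wild-type arrays read brighter without passing. *Ccr4* itself was not well above background.

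The eosinophil attractants did not follow *Ccl17*. *Ccl11* (eotaxin) had levels of -1.64, -1.80, -1.85 and -1.79, within 1.16-fold. *Ccl24* had levels of -5.23, -5.41, -5.27 and -5.67, the last not well above background. *Ccl11* was thus level across the groups. *Ccl26* was well above background in untreated OHC-TRECK mice alone, at -5.01, at least 1.89-fold above untreated wild-type and at least 1.35-fold above DT-treated OHC-TRECK mice. *Ccl1*, a CCR8 ligand, passed in the same group alone, at -6.10, below the lowest passing signal of every other array, so that no fold can be given.

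*Cxcl14* and *Ccr6* went down with ablation. *Cxcl14*, a constitutive chemokine of epithelia and stroma, had levels of 0.23, 0.29, 0.55 and -0.63. *Ccr6*, the receptor of CCL20 on B cells, Th17 cells and dendritic cells, had levels of -1.01, -0.84, -0.76 and -1.83. The 3 arrays with OHCs lay within 1.24-fold of each other for *Cxcl14* and 1.19-fold for *Ccr6*, and the ablated array was lowest. *Cxcl14* was lower by 2.26-fold against untreated OHC-TRECK, 1.90-fold against DT-treated wild-type and 1.82-fold against untreated wild-type mice. *Ccr6* was 2.10-, 1.99- and 1.76-fold lower. *Ccl20*, the ligand of CCR6, did not pass the background flag on any array.

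**Figure D2:**
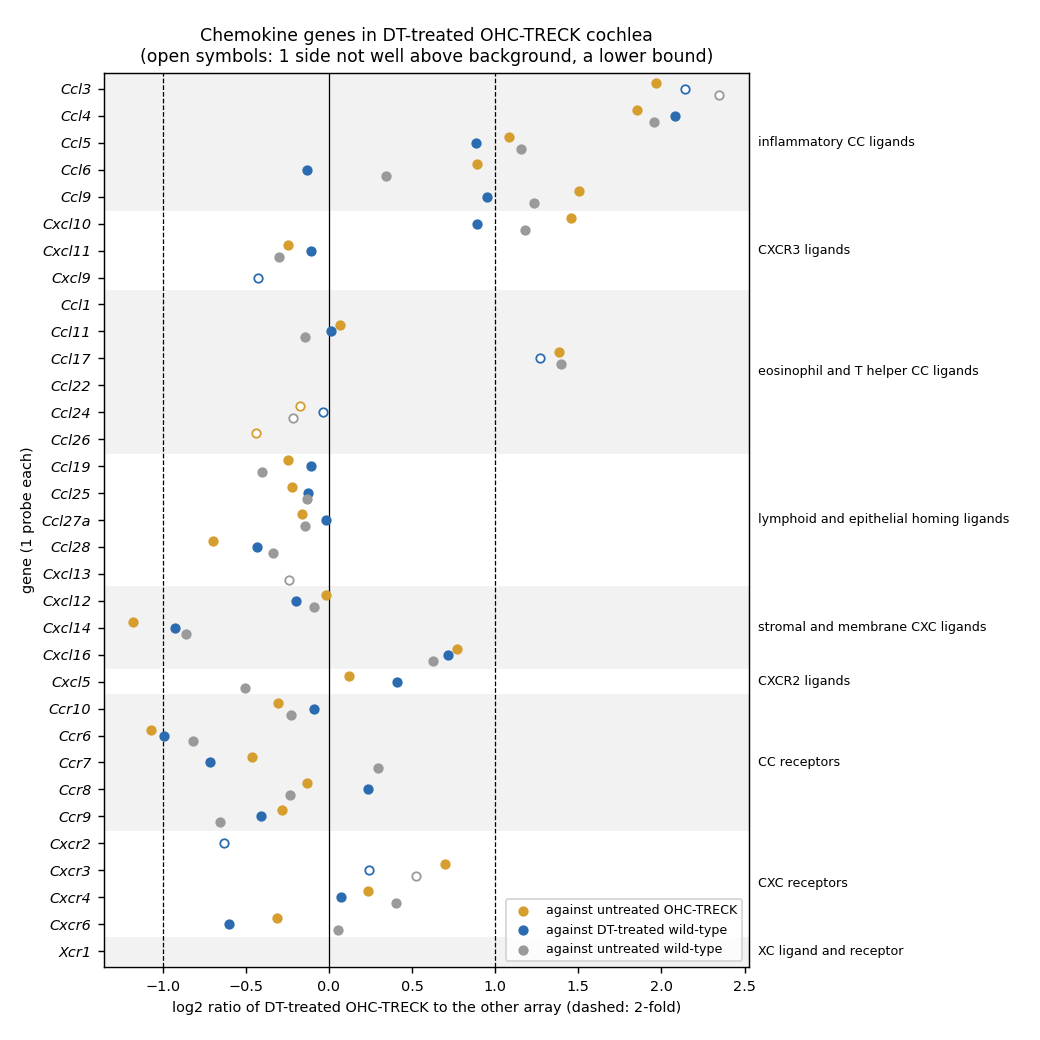
Log2 ratio of DT-treated OHC-TRECK to each of the other 3 arrays (x axis, colours) for the genes of the family with a ratio (y axis, by role), with dashed lines at 2-fold. Open symbols mark ratios with 1 side not well above background, which are lower bounds only where that side was raised. *Ccl3* and *Ccl4* lie beyond 2-fold against every array, from 1.85 to 2.35, with *Ccl17* from 1.27 to 1.39, and *Cxcl14* and *Ccr6* are the only genes left of the 2-fold line, against untreated OHC-TRECK alone.

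*Cxcl16*, a membrane-bound chemokine and scavenger receptor of macrophages and endothelium, had levels of -1.01, -1.10, -1.15 and -0.38. It stayed under 2-fold, at 1.70-, 1.64- and 1.54-fold above untreated OHC-TRECK, DT-treated wild-type and untreated wild-type mice. Its receptor *Cxcr6* did not move with it, with levels of -4.35, -3.70, -3.98 and -4.30. Among the 22 genes well above background on all 4 arrays, the ablated array was at least 1.5-fold above the highest of the others for 5 (*Ccl4*, *Ccl5*, *Ccl9*, *Cxcl10* and *Cxcl16*), against 1.68% of all genes, and at least 1.5-fold below the lowest for 2 (*Cxcl14* and *Ccr6*), against 1.01%. Without a size limit, 6 of 22 lay above the range of the others and 10 below it, beside 33.5% and 35% of all genes, which is near the background.

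*Cxcl12* (SDF-1), the stromal ligand that retains stem cells and lymphocytes in marrow, had levels of 2.28, 2.39, 2.21 and 2.19, within 1.15-fold. Its receptor *Cxcr4* had levels of -3.39, -3.07, -3.23 and -2.99, within 1.32-fold. The other probe of *Cxcl12* gave a log2 ratio of 0.50 between DT-treated and untreated OHC-TRECK mice where the brighter gave -0.02, so the level reading holds for 1 of 2 probes. *Ackr3*, the scavenger receptor of CXCL12 formerly called *Cxcr7*, falls outside the naming rule and was looked up afterwards, with levels of 1.51, 1.72, 1.71 and 2.16.

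Among the 5 measurable ligands that guide cells to lymphoid tissue and epithelia, 0 changed by 2-fold or more in DT-treated against untreated OHC-TRECK mice. Of all genes 4.13% did, so a count of 0 among so few is near the background. *Ccl19*, a CCR7 ligand, had levels of -0.54, -0.83, -0.69 and -0.94. *Ccl25*, the CCR9 ligand of thymus and gut, had levels of -0.38, -0.38, -0.29 and -0.51. A dim probe of *Ccl25* that also passed on all arrays went the other way. Its log2 ratio of DT-treated to untreated OHC-TRECK mice was 0.34, where the brightest probe gave -0.22. *Ccl27a*, a CCR10 ligand of skin, had levels of 2.03, 1.90, 2.04 and 1.88. All differences between arrays were under 1.5-fold for these 3 ligands. *Ccl19* and *Ccl27a* have near-identical copies in the mouse genome, so their probes may read several loci. *Ccl28*, a mucosal ligand of CCR10 and CCR3, had levels of -4.46, -4.37, -4.10 and -4.80, or 1.62-fold lower in DT-treated than in untreated OHC-TRECK mice. *Cxcl13*, the B cell attractant of follicles, passed on the 2 untreated arrays only, with levels of -5.00, -5.34, -5.33 and -5.24. The DT-treated arrays, which did not pass, thus read much as untreated OHC-TRECK mice did.

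The homing receptors were dim. *Ccr8* had levels of -4.31, -4.78, -4.41 and -4.54, *Ccr9* had levels of -4.68, -4.93, -5.05 and -5.34, and *Ccr10* had levels of -3.52, -3.66, -3.44 and -3.75. The widest difference among them was 1.57-fold, for *Ccr9* between untreated wild-type and DT-treated OHC-TRECK mice. *Xcr1*, the receptor of cross-presenting dendritic cells, was well above background in untreated OHC-TRECK mice alone, with levels of -7.75, -7.37, -5.93 and -7.36. That signal did not exceed the lowest passing signal of any other array and gave no fold. *Cxcl5* had levels of -4.17, -5.08, -4.79 and -4.67, highest in untreated wild-type mice, by 1.89-fold over DT-treated wild-type mice.

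In wild-type mice, DT was accompanied by few changes, in *Ccr7* and *Cxcr2*. Of 27 genes tested in DT-treated against untreated wild-type mice, 2 were higher by 2-fold or more, against 1.55% of all genes, and 0 were lower, against 1.12%, with 2.67% of all genes called in either direction. *Ccr7*, the receptor that leads dendritic cells and naive T cells to lymph nodes, had levels of -4.88, -3.87, -4.12 and -4.58. It was 2.02-fold higher with DT in wild-type mice and 1.38-fold lower with DT in OHC-TRECK mice. The untreated OHC-TRECK array was itself 1.70-fold above untreated wild-type, so untreated wild-type stood low among the 4. *Cxcr2*, the main chemokine receptor of neutrophils, was well above background in DT-treated wild-type mice alone, with levels of -6.35, -4.81, -7.38 and -7.25. It was at least 2.17-fold above untreated wild-type mice and at least 1.55-fold above DT-treated OHC-TRECK mice. With normexp correction neither gene kept the 2-fold call, at 0.64 for *Ccr7* and 0.63 for *Cxcr2* on the log2 scale.

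The genes that were higher after ablation and measurable on all arrays moved by at most 1.22-fold with DT in wild-type mice. The log2 ratio of DT-treated to untreated mice was 1.85 in OHC-TRECK and -0.13 in wild-type for *Ccl4*, 1.51 and 0.28 for *Ccl9*, 1.46 and 0.29 for *Cxcl10*, and 1.08 and 0.27 for *Ccl5*. For *Cxcl14* the pair was -1.18 and 0.06, and for *Ccr6* it was -1.07 and 0.17. No gene moved by 1.5-fold or more in opposite directions with DT in the 2 genotypes. With 1 array per group, the difference between genotypes in the effect of DT could not be tested.

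**Figure D3:**
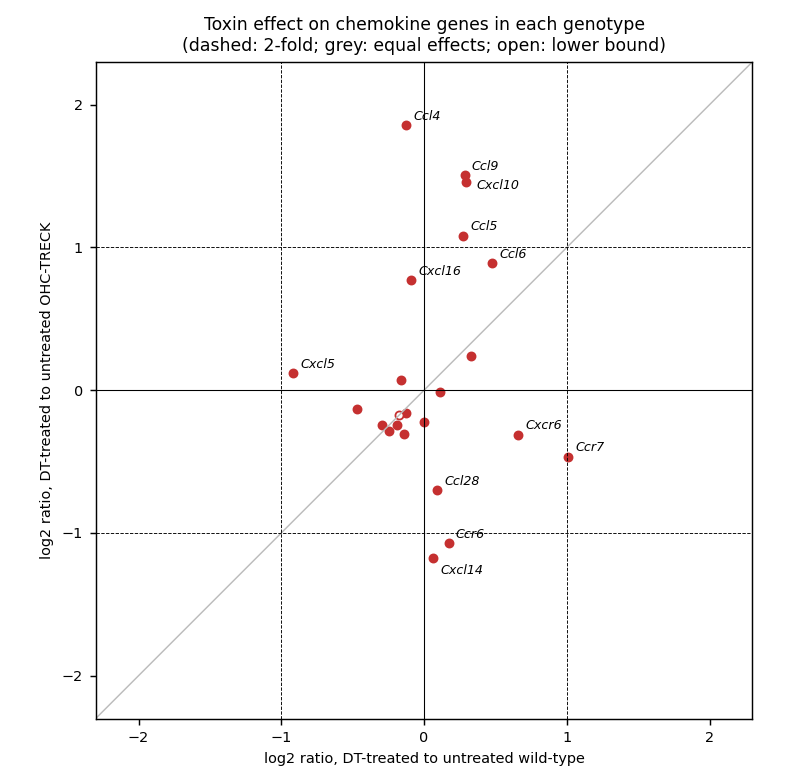
Log2 ratio of DT-treated to untreated mice in wild-type (x axis) and OHC-TRECK (y axis), 1 point per gene of the family with a ratio in both, dashed lines at 2-fold, a grey line for equal effects and open symbols for lower bounds. *Ccl4*, *Ccl9*, *Cxcl10* and *Ccl5* lie high on the y axis between -0.13 and 0.29 on the x axis, and *Ccr7* is the only gene at 2-fold on the x axis.

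Carrying the transgene without DT was not accompanied by any change of 2-fold. In untreated OHC-TRECK against untreated wild-type mice, 0 of 31 genes were higher, beside 1.03% of all genes, and 0 were lower, beside 2.42%, with 3.45% of all genes called in either direction. The median was 0.01 on the log2 scale beside -0.01 for all genes. The widest difference measured on both arrays was that of *Ccr7*, 1.70-fold higher, and that of *Ccl26* was at least 1.89-fold.

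The 3 arrays without ablation differed among themselves more for chemokine genes than for most genes. The median range over these 3 arrays was 0.31 on the log2 scale for the 22 genes measurable on all 4, against 0.15 for all such genes. A range of 1.5-fold or more was found for 4 of the 22, beside 5.1% of all genes. These were *Ccl6* with a range of 1.02, *Ccr7* with 1.01, *Cxcl5* with 0.92 and *Cxcr6* with 0.66. The family and all genes were not matched for level. *Ccr7*, *Cxcl5* and *Cxcr6* were dim, and repeated spots of dim probes scattered more than those of brighter ones. The rises of *Ccl3* and *Ccl4* were larger than the range over the other arrays, which was 0.38 for *Ccl3* and 0.23 for *Ccl4*. The range of *Ccl3* includes wild-type readings that did not pass. The same held for the rises of *Ccl5* (0.27) and *Cxcl10* (0.57).

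Markers of blood-forming cells, which the marrow of the temporal bone holds, differed between the arrays. The summed signal of the 16 neutrophil and granulocyte precursor markers was 39.7, 62.5, 14.3 and 24.7 times the 75th percentile, and all 16 were measurable. The 12 erythroid markers summed to 7.33, 12.8, 8.52 and 10.2, and the 10 B cell markers to 4.22, 5.20, 4.21 and 4.47. Bright genes that varied little weigh most in these sums, *Hemgn* in the erythroid list and *Ebf1* and *Blnk* in the B cell list. In DT-treated against untreated wild-type mice, the median log2 ratio was 1.76 for erythroid, 0.675 for B cell and 0.63 for neutrophil markers. DT-treated wild-type mice were thus highest for these lists, and neutrophil markers were lowest in untreated OHC-TRECK mice. *Ccl6* was highest and lowest on the same arrays as the neutrophil sum, an order found for 1 of 22 genes of the family and for 3.82% of all genes, which is near the background. With a range of 1.5-fold or more, the order was again found for *Ccl6* alone, 1 of 22, and for 1.19% of all genes. *Cxcr2*, which passed in DT-treated wild-type mice alone, the array with the highest neutrophil sum, was not among these 22 genes. The part of marrow content in the chemokine results was not tested.

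Macrophage markers moved with the genes that were higher after ablation. The 14 of 15 measurable markers summed to 27.6, 25.1, 22.5 and 36.4, and 5 of them (*Cd68*, *Adgre1*, *C1qb*, *Lyz2* and *Mpeg1*) were higher by 2-fold or more against each of the other arrays, beside 1.07% of all genes. *Cd68* had levels of -0.26, -0.22, -0.46 and 1.0, and *Mpeg1* had levels of 0.28, 0.39, 0.10 and 1.78. The median log2 ratio of the 14 was 1.03 against untreated OHC-TRECK mice and 0.88 against DT-treated wild-type mice, and that of the 5 inflammatory CC ligands was 1.51 and 0.95. *Itgam* went the other way, with 2.43 on the ablated array and 2.67 to 3.18 on the others, and *Cd163* was not measurable. The part of macrophage number in the chemokine result was not tested. T and NK cell markers summed to 2.98, 2.59, 2.35 and 2.61, with 6 of 10 measurable and *Cd3d*, *Cd3g*, *Cd8a* and *Klrb1c* not well above background on any array, and 0 were 2-fold higher against each other array. *Ncr1*, a receptor of NK cells, was well above background on the ablated array alone, with levels of -8.16, -7.71, -8.66 and -5.08. It was at least 2.49-fold above untreated OHC-TRECK mice, the array with the lowest passing signal. Against either wild-type array the limit was smaller and 0 T and NK cell markers were called higher.

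**Figure D4:**
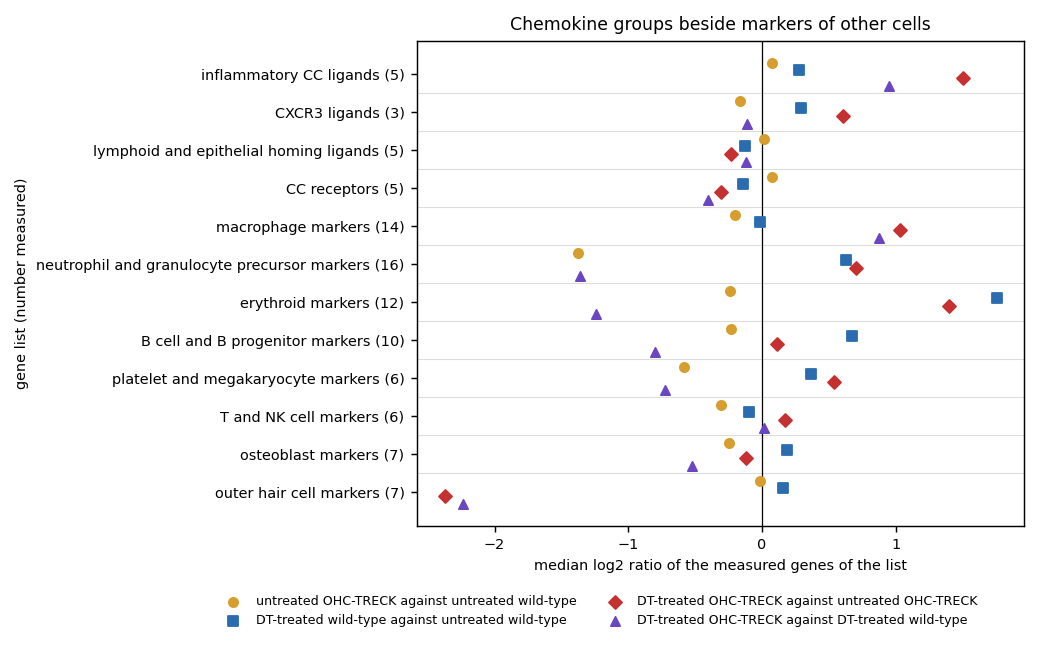
Median log2 ratio (x axis) of the measured genes of 4 chemokine groups and 8 marker lists (y axis, number measured in brackets) in 4 comparisons (symbols). Inflammatory CC ligands and macrophage markers lie at 1.51 and 1.03 for DT-treated against untreated OHC-TRECK mice, outer hair cell markers at -2.37, and neutrophil markers at -1.38 for untreated OHC-TRECK against untreated wild-type mice.

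Of 17 other genes of the system, 15 were measurable, and 4 were higher and 1 was lower by 2-fold or more against each of the other arrays, beside 1.07% and 0.255% of all genes. The 4 were genes of the *Ccr2* axis left out above, *Ccl2* with levels of -3.37, -3.80, -3.86 and -1.64, *Ccl7* with -3.77, -4.46, -4.24 and -2.16, *Ccl8* with -6.18, -6.11, -6.08 and -4.30, and *Ccr2* with -5.07, -4.49, -5.89 and -3.30. *Ccl12*, also of that axis, had levels of -1.95, -2.30, -2.44 and -1.40, which put the ablated array 2.06-fold above untreated OHC-TRECK and 1.47-fold above untreated wild-type mice. The decrease was in *Ackr4*, the scavenger of CCL19, CCL21 and CCL25, with levels of -2.86, -2.30, -2.72 and -3.87. Neutrophil and platelet chemokine *Ppbp*, which is made by megakaryocytes, had levels of -1.28, 0.24, -5.46 and -4.55. It was thus lower on both OHC-TRECK arrays, with or without DT, than on both wild-type arrays. The part of genotype and of marrow content in this was not tested. The platelet marker list, which includes *Ppbp* and *Pf4*, summed to 3.15, 4.79, 1.69 and 2.54.

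Of 16 genes of chemokine receptor signalling, 15 were measurable. In DT-treated against untreated OHC-TRECK mice 3 of these 15 were higher by 2-fold or more, beside 2.71% of all genes. They were *Pik3r5*, a regulatory subunit of PI3Kγ, at 2.11-fold, *Rac2*, a GTPase of blood cells, at 2.13-fold and *Rgs1*, a regulator of G protein signalling, at least 2.17-fold. Against untreated wild-type mice *Pik3r5* was at least 3.21-fold and *Pik3cg*, the catalytic subunit, 2.05-fold higher on the ablated array. The fold of *Pik3cg* is a ratio to a reading that did not pass. *Pik3r5* was also at least 2.26-fold higher in DT-treated than in untreated wild-type mice. Against each other array 0 of the 15 changed, beside 1.32% of all genes, which is near the background. The G protein subunit *Gnai2* had levels of 3.85, 3.75, 3.71 and 3.82. Of 11 cytokine and NF-κB genes, 8 were measurable and again 0 changed against each other array, beside the same 1.32% of all genes. *Tnf*, *Ifng* and *Il1a* were not well above background on any array. *Il1b* had levels of -4.98, -4.72, -4.58 and -3.83, highest on the ablated array, and the NF-κB inhibitor *Nfkbia* had levels of 3.82, 3.73, 3.75 and 3.72. Of the interferon regulatory factors in the list, *Irf1* had levels of 0.97, 0.85, 0.85 and 0.98, and *Irf7* had levels of -2.01, -2.23, -2.41 and -1.80. *Irf7* was highest on the ablated array, by 1.53-fold over untreated OHC-TRECK and 1.16-fold over untreated wild-type mice. *Irf1* was level, with the ablated array 1.01-fold above untreated wild-type mice. *Nfkbiz*, an atypical inhibitor of NF-κB, was 1.93-fold higher on the ablated array than in untreated OHC-TRECK mice, with levels of -4.22, -3.79, -4.99 and -4.04.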

How the data were processed

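Cochlear RNA of each group was pooled by the authors, and its Cy3-labelled cRNA was read on 1 Agilent mouse array, with all 4 arrays on 1 slide. The deposited intensity of each spot is linear, with background subtracted within the array by Agilent Feature Extraction 11.5.1.1 and no scaling between arrays. The deposited mean and background intensity before subtraction served 1 alternative. The authors also deposited a table of processed values, which is this intensity scaled by a constant for each array.

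Control spots and 149 to 228 outlier spots per array were left out, repeated spots were averaged per probe, and a probe took a flag that more than 0.5 of its spots carried. Signals were set relative to the 75th percentile over the probes of an array before log2. With 1 array per group no test was made, and genes were counted at 2-fold or more. A few genes of the naming rule and the lists are not reported here and enter no count over the family or a list. Where a bound for the dim side exceeded the bright side, no fold is given. Named genes were those changed by 2-fold, members of the described groups measurable on all arrays, members whose probes disagree, and genes of related lists changed against each other array. *Cxcl16*, *Cxcl9* and the other genes described outside these were added to account for every member. *Ackr3*, *Ppbp*, *Gnai2*, *Il1b*, *Nfkbia*, *Nfkbiz*, *Irf1*, *Irf7*, *Pik3cg*, *Pik3r5*, *Rac2*, *Rgs1*, *Ncr1*, *Ccl12*, *Itgam*, *Cd68* and *Mpeg1* were chosen with their values known. The members, the 23 gene lists with 200 genes and the 9 alternatives were chosen with earlier results of these data known.

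All 45 symbols had a RefSeq entry, and 33 had a promoter in the table used. Probe positions are those of the files, on mm9, and were not converted. The promoter motifs were chosen with chemokine levels known and shortened by 1 base after a first search, which added *Ccl1*, *Ccl3*, *Cxcl9* and *Cxcr1* to the second. The calling steps were tested on simulated data. Python 3.11.15, numpy 2.4.6, pandas 2.3.3, matplotlib 3.10.9, R 4.3.3 and limma 3.58.1 were used.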

Additional observations from a re-analysis of the deposited data

How the results depend on the processing

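All 9 alternatives were run for each comparison, and 37 of the 54 counts stayed within 1.5 times the value given. No ratio of 2-fold or more changed sign. Among the other ratios of these genes, *Ccl17* in untreated OHC-TRECK against untreated wild-type mice went from 0.01 to as low as -0.09 and *Ccl4* in DT-treated against untreated wild-type mice from -0.13 to as high as 0.01. Of 389 ratios under an alternative, all of genes called changed in a comparison of a pair of arrays, 371 moved by less than the scatter of repeated spots. Some moves were large. *Ccl3* against untreated wild-type mice went from 2.35 to as low as 1.31 in DT-treated OHC-TRECK mice. *Cxcr2* against DT-treated wild-type mice went from -0.63 to as low as -2.44. In untreated OHC-TRECK against untreated wild-type mice, the count of 0 became 2 without the bound for dim signals (*Ccl26* and *Xcr1*), 3 with the looser positive and significant flag, and 1 with quantile scaling. In DT-treated against untreated wild-type mice, the count of 2 became 1 when both arrays or all 4 had to be well above background, 4 with the looser flag and 0 with normexp correction. With the looser flag, the count of 8 in DT-treated against untreated OHC-TRECK mice became 14 (9 higher and 5 lower), the 6 against untreated wild-type mice became 11, the 3 against DT-treated wild-type mice became 9, and the 3 against each other array became 6. Without the bound, the count against DT-treated wild-type mice became 5 (3 higher and 2 lower). That count and the count against each other array became 1 when both arrays or all 4 had to be well above background, leaving *Ccl4*. Both became 2 with normexp correction, leaving *Ccl3* and *Ccl4*. Fewer genes pass the stricter flags by construction, and the cause of the other changes was not tested. No paired analysis was possible because each group has 1 array, and no array could be left out for the same reason. Dim genes near background, *Ccl3*, *Ccl17*, *Ccr7* and *Cxcr2* among them, are where the precision is lowest.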
